A study of Homo sapiens with 6 samples.

Results

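Perilipins and their partner proteins on the lipid droplet were examined in human colorectal cancer cells with and without knockdown of CNOT7. The 10 genes were taken by name from the table of read counts, which lists 58735 genes. They comprised the perilipins PLIN2, PLIN3, PLIN4 and PLIN5, the lipase gene PNPLA2 with its co-activator ABHD5 and its inhibitors G0S2 and HILPDA, and the triglyceride synthases DGAT1 and DGAT2. The genes were chosen by name with the differences between knockdown and control in these libraries known, that is, on log2 fold changes of the same comparison, so their levels, differences and calls are given as a description and are no independent test of these genes. All 10 had enough counts to be among the 17574 genes tested.

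The lipid droplet is a store of triglycerides and sterol esters wrapped in a single layer of phospholipids, and perilipins coat that surface. PLIN2 and PLIN3 are made in most tissues, while PLIN4 and PLIN5 are best known from fat, heart and muscle. DGAT1 and DGAT2 carry out the last step of triglyceride synthesis, and adipose triglyceride lipase, the product of PNPLA2, carries out the first step of breakdown.

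The study concerned how CNOT7 bears on the response of colorectal cancer cells to radiotherapy, and CNOT7 is a subunit of the CCR4-NOT complex, the main assembly that shortens the poly(A) tails of messenger RNAs. Total RNA from 3 control and 3 CNOT7 knockdown libraries was sequenced, and no library had a treatment. SW480 is the line given in the deposited labels, but the RNA sequencing is described in the paper as done on HCT116. The split into control and knockdown is the same under either name. The knockdown was a stable line made with an shRNA in a lentiviral vector that also holds copGFP, a green fluorescent protein, and a puromycin resistance marker. The control is labelled only as the control of CNOT7, and the table names its columns shNc.

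The methods list more than 1 shRNA against CNOT7, and the labels do not tell which of them a library carried. The knockdown columns are named sh1, sh2 and sh3, which may number replicates or different shRNAs. The library numbers were read as replicate numbers. If the shRNAs differ, the SD of the knockdown also holds differences between them. The labels do not say that libraries of a group came from separate cultures, so p-values measure the spread between these libraries, which may be technical. In bulk RNA, fewer cells that make a transcript and less of it per cell cannot be told apart.

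Total counts were 23788451 to 25982493 in the control libraries and 27523812 to 29104872 in the knockdown libraries, and 6.36% to 7.4% of counts were mitochondrial. Levels are given as CPM, the counts of a gene scaled to a common library total after TMM normalization, with the SD over 3 libraries. Where genes are compared, levels are RPKM, which also divides by the exonic length of the gene. CNOT7 itself fell from 179 ± 11.3 CPM to 43.1 ± 4.31 CPM, which left 24.1% of the control level (log2 fold change -2.05, adjusted p 2.64e-12 in edgeR's quasi-likelihood test), and every knockdown library lay below every control library. Of 10 colon epithelium markers, 8 were tested, 3 rose (CDH1, VIL1 and GPA33) and 2 fell (KRT8 and KRT19). KRT20 and LGALS4 had too few counts to be tested. The summed level of the 10 was 5430 to 5910 CPM by library size in the control and 5150 to 5820 in the knockdown. Most of this sum came from KRT8, KRT18 and KRT19, so it says little about the other markers. Of 7 fat cell markers, ADIPOQ and LEP had no count in any library and PLIN1 had 4 to 15 counts a library. LPL, the only 1 of the 7 that was tested, rose from 1.93 to 3.91 CPM.

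A gene was called when its Benjamini-Hochberg adjusted p in edgeR's quasi-likelihood test was under 0.05, and by this rule 25.2% of all tested genes were called, 13.3% higher and 11.9% lower in the knockdown. Of the 10 droplet genes, 3 (30.0%) were called higher, namely PLIN2, PLIN5 and DGAT2. None was called lower by edgeR or by DESeq2, and at an unadjusted p under 0.05 edgeR gave 4 higher and 1 lower. In 5 of the 10 genes the control and knockdown libraries did not overlap, against 38.8% of all tested genes. The median log2 fold change, knockdown against control, was 0.19 over the 10 genes and 0.0039 over all tested genes.

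**Figure D1:**
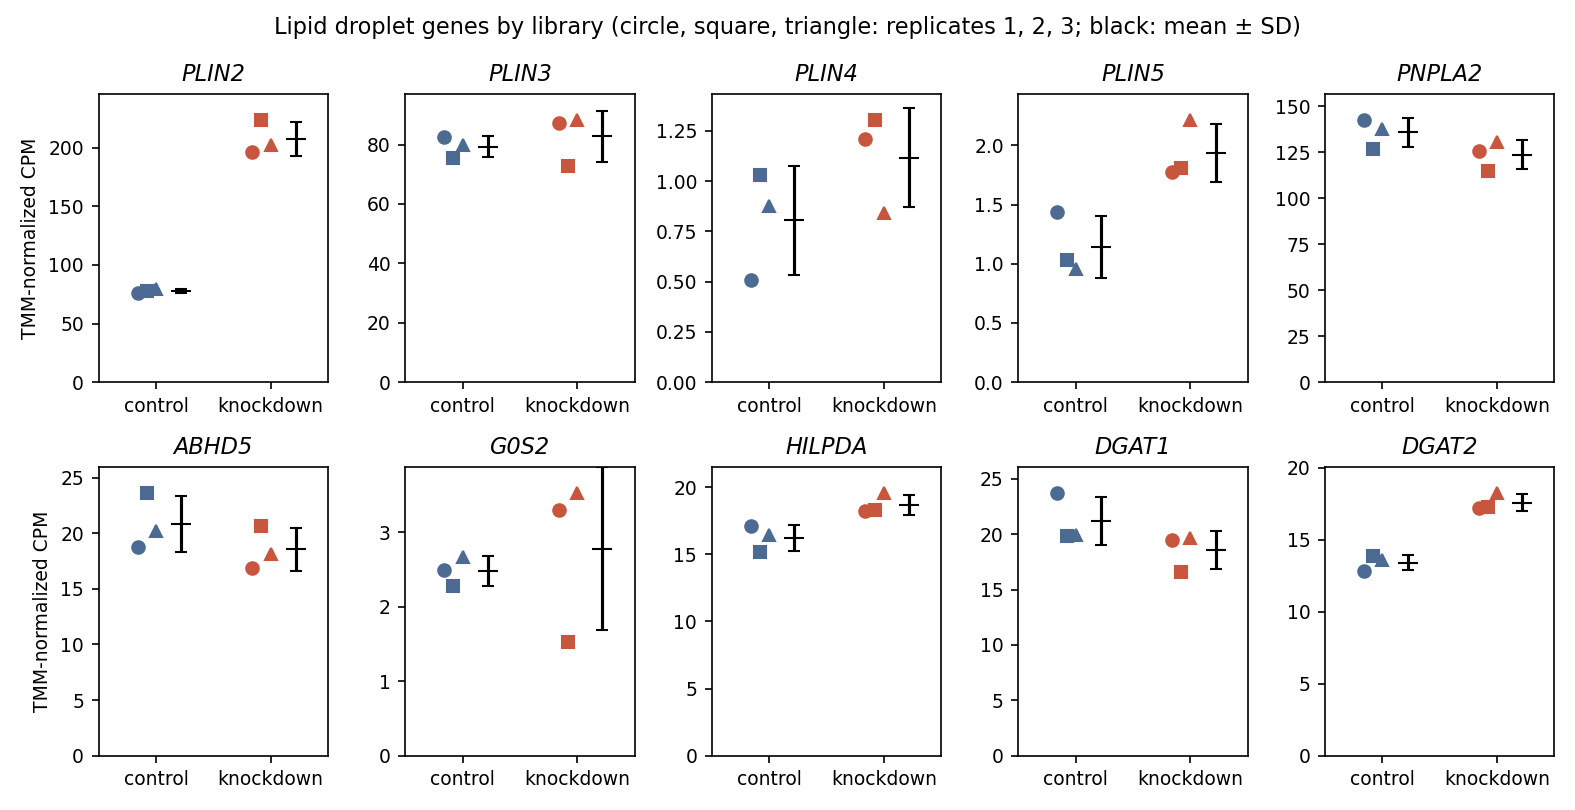
TMM-normalized CPM (vertical axis, from 0, a scale of its own for each gene) of the 10 lipid droplet genes in the 3 control (blue) and 3 CNOT7 knockdown (red) libraries, with the mean and SD in black. PLIN2 separates the groups by the widest gap, 79.1 CPM in the highest control against 196 CPM in the lowest knockdown library, while PLIN3, PNPLA2 and ABHD5 overlap.

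PLIN2 encodes perilipin 2, the droplet coat protein of most cells outside fat, which is stabilized by the lipid it binds. The gene (ENSG00000147872) lies on the minus strand of chromosome 9 at chr9:19108375-19149290 in GRCh38. Its level was 76.0, 78.1 and 79.1 CPM in control libraries 1, 2 and 3 and 196, 224 and 202 CPM in knockdown libraries 1, 2 and 3. All knockdown libraries were far above all control libraries, and the control libraries lay within a few CPM of each other. The mean was 77.7 ± 1.58 CPM in the control and 207 ± 14.6 CPM in the knockdown, which is 2.67-fold higher and a log2 fold change of 1.42 (SE 0.0606, 95% interval 1.29 to 1.54). Only 207 tested genes (1.18%) had a higher log2 fold change, and over all alternative fits the value stayed between 1.36 and 1.47.

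The sequence before the start of PLIN2 is shown because this gene had the largest difference of the 10. The RefSeq promoter table (GRCh38.p14) held 7 of the 10 genes, each with the 250 bases before its start. HILPDA, DGAT1 and DGAT2 were not in it, so no motif was searched in their promoters. In PLIN2 the 84 bases nearest to the start lie in an exon of another annotated start and are not shown. The other 166 bases, on the minus strand at chr9:19127577-19127742, lie in an intron of 1 longer annotated transcript and read 5′ to 3′, with capitals for the letters ACGTG and for GGGCGG as read on the other strand:

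PLIN2: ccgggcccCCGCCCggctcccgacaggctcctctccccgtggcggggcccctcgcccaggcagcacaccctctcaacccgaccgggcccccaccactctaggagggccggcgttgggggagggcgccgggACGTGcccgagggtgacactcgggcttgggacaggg

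Motifs were searched on both strands of the 250 bases. The core of the hypoxia response element, ACGTG, was found in 1 of the 7 genes, PLIN2, and in 18.5% of all 35116 promoters. The E-box CACGTG, which holds ACGTG on both strands, was also found in PLIN2 alone of the 7, starting 69 bases before the start in the part not shown, and in 6.34% of all promoters. The PPAR response element, searched as AGGTCA followed by any base and AGGTCA again, was in none of the 7 and in 0.0171% of all promoters. TATAAA was in PLIN2 alone (10.7% of all promoters), CCAAT in PLIN3, PLIN4 and PLIN5 (32.0%), and GGGCGG in PLIN2, PLIN3, PLIN5, PNPLA2 and ABHD5 (42.6%). A match describes the letters and shows no binding, and a missing match says only that the letters are not in the window.

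PLIN3, also known as TIP47, moves between the cytosol and nascent droplets. The gene (ENSG00000105355) lies at chr19:4838341-4867768 on the minus strand. Its level was 82.5, 75.6 and 79.8 CPM in the control libraries and 87.2, 72.8 and 88.3 CPM in the knockdown libraries. The groups overlapped, since knockdown library 2 was the lowest of all 6. The log2 fold change was 0.062 (SE 0.0723, 95% interval -0.091 to 0.21). PLIN3 and PLIN2 had almost the same CPM in the control, but per length PLIN3 was the more abundant, at 28.2 against 15.3 RPKM.

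PLIN4, a perilipin of fat cells and muscle, was near the lower limit of what these libraries could measure. The gene (ENSG00000167676) lies at chr19:4502180-4518465 on the minus strand. It had 13, 24 and 22 counts in the control libraries and 34, 36 and 25 counts in the knockdown libraries. On the CPM scale this was 0.805 ± 0.27 and 1.12 ± 0.245, with overlapping groups, and the log2 fold change was 0.47 (SE 0.322, 95% interval -0.20 to 1.15). The interval covers no difference as well as a log2 difference of 1, so these libraries do not decide between them.

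PLIN5, the perilipin of oxidative tissues, which ties droplets to mitochondria, was similarly scarce but was called higher. The gene (ENSG00000214456) lies at chr19:4522531-4535224 on the minus strand, only 4065 bases from PLIN4. It had 37, 24 and 24 counts in the control libraries and 50, 50 and 66 in the knockdown libraries, that is 1.44, 1.03 and 0.958 CPM against 1.77, 1.81 and 2.22 CPM. The lowest knockdown library lay above the highest control library. The mean was 1.14 ± 0.26 CPM in the control and 1.93 ± 0.245 CPM in the knockdown, a log2 fold change of 0.75 (SE 0.243, 95% interval 0.24 to 1.27). The call was lost with DESeq2, with cyclic loess scaling and when control 2, control 3, knockdown 1, knockdown 3 or both libraries numbered 2 were left out, and the log2 fold change over all alternatives was 0.59 to 0.96. Of its exonic bases, 21.7% are shared on the same strand with AC011498.4, so part of these counts depends on how shared reads were assigned.

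The balance of the perilipins moved with PLIN2. Per length, PLIN2 made up 33.46%, 36.04% and 35.13% of the summed RPKM of PLIN2 to PLIN5 in the control libraries and 55.02%, 62.45% and 55.4% in the knockdown libraries. PLIN3 was the most abundant perilipin in every control library and PLIN2 in every knockdown library. The ratio of PLIN2 to PLIN3 was 0.543 ± 0.0313 in the control and 1.40 ± 0.257 in the knockdown. The summed perilipin level was 43.9 ± 1.08 RPKM in the control and 70.8 ± 0.841 RPKM in the knockdown, and 94.7% of that difference of 26.9 RPKM came from PLIN2. PLIN4 and PLIN5 together stayed below 1% of the sum, at 0.824% ± 0.0628 in the control and 0.81% ± 0.0174 in the knockdown.

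**Figure D2:**
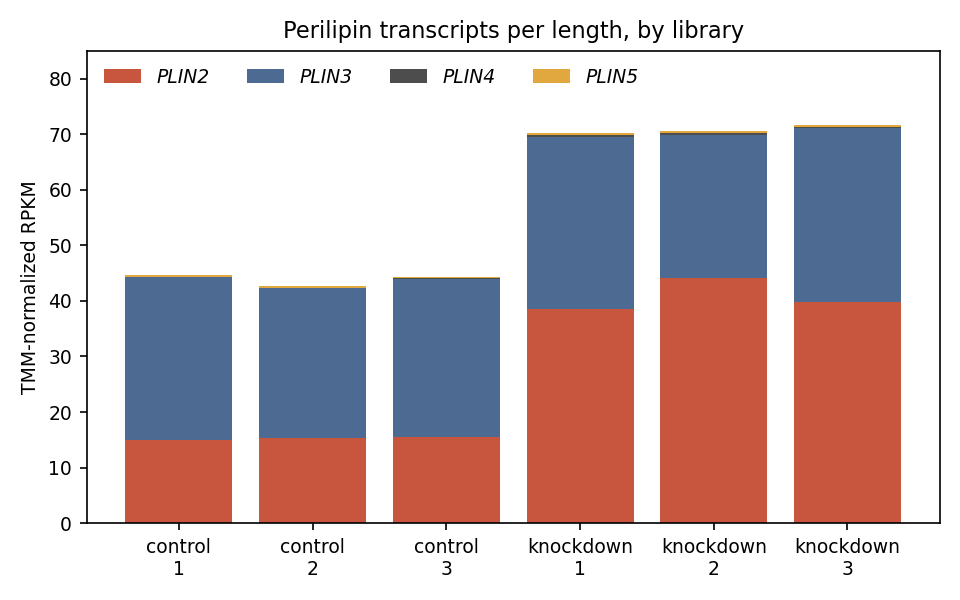
TMM-normalized RPKM (vertical axis, from 0) of PLIN2, PLIN3, PLIN4 and PLIN5 stacked for each of the 6 libraries. The stack is 42.6 to 44.7 RPKM high in the control and 70.1 to 71.7 RPKM in the knockdown libraries, and the red PLIN2 part accounts for most of the difference.

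PNPLA2, the triglyceride lipase gene, had the highest level per length of the 10 in the control. The gene (ENSG00000177666) lies at chr11:818902-825573 on the plus strand. Its level was 143, 127 and 138 CPM in the control libraries and 126, 115 and 131 CPM in the knockdown libraries. The groups overlapped, and library 2 was the lowest in each. The log2 fold change was -0.13 (SE 0.0627), and it was not called, although it was called lower when control 2 was left out (log2 fold change -0.18) and when both libraries numbered 2 were left out (-0.13).

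ABHD5, also known as CGI-58, switches the lipase on and is itself held on the droplet by perilipins. The gene (ENSG00000011198) lies at chr3:43690108-43734371 on the plus strand. Its level was 18.8, 23.6 and 20.2 CPM in the control libraries and 16.9, 20.7 and 18.1 CPM in the knockdown libraries. The groups overlapped and library 2 was the highest in each, with a log2 fold change of -0.17 (SE 0.101, 95% interval -0.38 to 0.047). The ratio of PNPLA2 to ABHD5 in RPKM was 13.0 ± 2.22 in the control and 13.2 ± 2.03 in the knockdown, a difference well within the spread of either group.

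G0S2, a small protein that binds the lipase and blocks it, varied widely between the knockdown libraries. The gene (ENSG00000123689) lies at chr1:209675420-209676388 on the plus strand. Its level was 2.49, 2.28 and 2.67 CPM in the control libraries and 3.30, 1.52 and 3.53 CPM in the knockdown libraries. Knockdown libraries 1 and 3 were above all controls and knockdown library 2 was below them. The log2 fold change was 0.17 (SE 0.248), it was 0.46 without knockdown library 2, and it turned to -0.045 without knockdown library 3, so no direction can be read.

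HILPDA, a lipase inhibitor known for its induction by hypoxia, was a little higher in the knockdown without being called. The gene (ENSG00000135245) lies at chr7:128455849-128458418 on the plus strand. Its level was 17.1, 15.2 and 16.4 CPM in the control libraries and 18.2, 18.3 and 19.5 CPM in the knockdown libraries. The groups did not overlap, and the log2 fold change was 0.20 (SE 0.0872, 95% interval 0.019 to 0.39). It was called higher when only library size was used for scaling, which moved the median of all genes up by 0.0467. Of its exonic bases, 13.2% are shared with other genes on the same strand.

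The lipase transcript was also set against PLIN2 and against its inhibitors, and its ratios to PLIN2 and HILPDA separated the groups. The ratio to PLIN2 mostly repeats the difference of PLIN2 itself, and how often such ratios separate the groups among all genes was not computed. In RPKM, PNPLA2 stood at 2.31 ± 0.167 times PLIN2 in the control and at 0.794 ± 0.0993 times in the knockdown. PNPLA2 was 4.51 ± 0.0121 times HILPDA in the control and 3.57 ± 0.171 times in the knockdown, with no overlap of libraries. PNPLA2 was 12.4 ± 0.674 times G0S2 in the control, while the knockdown libraries spanned 8.34 to 17.0, on both sides of the control.

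DGAT1, the triglyceride synthase of the endoplasmic reticulum, was slightly lower in the knockdown and was not called. The gene (ENSG00000185000) lies at chr8:144314584-144326910 on the minus strand. Its level was 23.7, 19.9 and 19.9 CPM in the control libraries and 19.5, 16.6 and 19.6 CPM in the knockdown libraries. The groups did not overlap, but the gap between 19.9 and 19.6 CPM was small beside the spread within each group. The log2 fold change was -0.19 (SE 0.0968, 95% interval -0.39 to 0.015).

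DGAT2, an unrelated enzyme of the same reaction that can act on the droplet itself, was called higher. The gene (ENSG00000062282) lies at chr11:75759512-75801535 on the plus strand. Its level was 12.8, 13.8 and 13.6 CPM in the control libraries and 17.2, 17.3 and 18.2 CPM in the knockdown libraries. The groups were clearly apart, and each was tight. The mean was 13.4 ± 0.546 CPM in the control and 17.6 ± 0.582 CPM in the knockdown, 1.31-fold higher with a log2 fold change of 0.39 (SE 0.0884, 95% interval 0.20 to 0.58), and it was called in every alternative fit. The ratio of DGAT2 to DGAT1 in RPKM was 0.282 to 0.364 in the control libraries and 0.46 to 0.546 in the knockdown libraries.

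**Figure D3:**
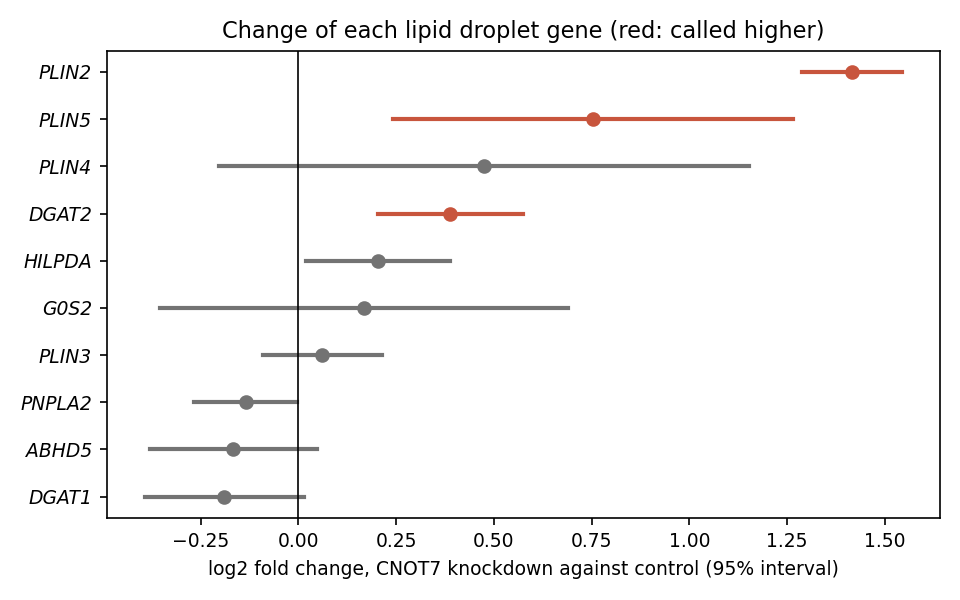
Log2 fold change of each gene, CNOT7 knockdown against control (horizontal axis), with its 95% interval. PLIN2 at 1.42 lies apart from the other 9 genes, which run from DGAT1 at -0.19 to PLIN5 at 0.75, and the intervals of PLIN4 and G0S2 are wide.

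Ranked by mean RPKM, the order of the 10 genes in the control was PNPLA2 (35.3), PLIN3 (28.2), PLIN2 (15.3), HILPDA (7.84), DGAT1 (5.12), G0S2 (2.86), ABHD5 (2.76), DGAT2 (1.70), PLIN5 (0.237) and PLIN4 (0.124). In that order G0S2 and ABHD5 overlapped between libraries and all other neighbours did not. In the knockdown PLIN2 came first at 40.8 RPKM, above PNPLA2 (32.2) and PLIN3 (29.4), which overlapped each other. HILPDA (9.02), DGAT1 (4.50), G0S2 (3.21), ABHD5 (2.46) and DGAT2 (2.22) followed, and each of the last 3 overlapped the one before it. PLIN5 (0.402) and PLIN4 (0.172) remained last.

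Library 2 was the lowest library of its group, in both groups, for PLIN3, PNPLA2, G0S2 and DGAT1, and the highest in both for PLIN4 and ABHD5. The biological coefficient of variation in edgeR was 0.0536 for PLIN2, lower than in most tested genes (median 0.0744), and 0.181 for PLIN4 and 0.182 for G0S2. With strandedness not stated, reads of genes that overlap on opposite strands may not have been told apart. Such overlap covers 17.8% of the exonic bases of PLIN3, 10.4% of PNPLA2 and 6.83% of DGAT2, and none of PLIN2, PLIN5, G0S2 or HILPDA. On the same strand, other genes share 10.9% of the exonic bases of DGAT1.

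The untranslated end of a messenger RNA can carry AU-rich elements, whose core ATTTA is bound by proteins that recruit the CCR4-NOT complex. In GENCODE 29, on the transcript with the longest coding sequence, 7 of the 10 genes had no ATTTA in the 3′ UTR, PLIN2 (478 bases of 3′ UTR), PLIN5 (997 bases) and HILPDA (956 bases) among them. DGAT2 and PNPLA2 had 1 each, and ABHD5, with 4193 bases, had 9. Of 13644 tested genes with such a transcript, 65.3% had at least 1, and the median 3′ UTR was 951 bases long.

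The nearest tested protein-coding genes on either side of the 10 were 18 genes apart from the droplet genes themselves, of which 3 rose, 2 fell and 13 were not called. Of all tested genes 25.2% were called, a share close to that of these neighbours. Both neighbours of PLIN2 rose, but by much less than PLIN2. HAUS6, 5255 bases away, went from 124 to 157 CPM (log2 fold change 0.35, SE 0.0615, adjusted p 4.66e-04), and DENND4C, 81144 bases away, from 74.1 to 99.5 CPM (0.43, SE 0.0639, adjusted p 1.02e-04). LRG1, a secreted glycoprotein gene 1184 bases from PLIN5, rose from 3.57 to 7.97 CPM (log2 fold change 1.16, SE 0.144, adjusted p 1.39e-05), more than PLIN5 did. UHRF1, 35311 bases from PLIN3, fell by 0.52 on the log2 scale (SE 0.0571, adjusted p 3.92e-06). MAP6, 90391 bases from DGAT2, fell by 0.62 (SE 0.0957, adjusted p 1.29e-04). The adjusted p-values of these neighbours are from edgeR's quasi-likelihood test.

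The 5 tested genes whose log2 CPM over the 6 libraries, centred on the control mean, lay closest to that of PLIN2 were FRMD4B, GLIS1, HPCAL4, ACOX2 and LGALS9. Their root mean square distances from PLIN2 were 0.0894, 0.0973, 0.101, 0.11 and 0.11 in log2 units. FRMD4B went from 4.80 to 13.7 CPM, and HPCAL4 from 8.74 to 23.8 CPM. ACOX2, an oxidase of bile acid precursors in peroxisomes, went from 1.41 to 3.92 CPM. GLIS1 went from 0.176 to 0.573 CPM (log2 fold change 1.68, SE 0.442) and LGALS9 from 0.555 to 1.77 CPM (1.66, SE 0.274). For these distances a prior count of 2 was used in the log2 CPM, which shrinks differences of scarce genes. All 5 were expressed at a far lower level than PLIN2.

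Around the 10 genes, 125 genes of 7 lists with related roles were looked up, 98 were tested, and 26 rose and 17 fell, which is 43.9% called against 25.2% of all tested genes. Their median log2 fold change was 0.031. The lists were drawn up with earlier results of these data known, and no list was tested as a set. Adjusted p-values of single genes are from edgeR's quasi-likelihood test over all tested genes.

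**Figure D4:**
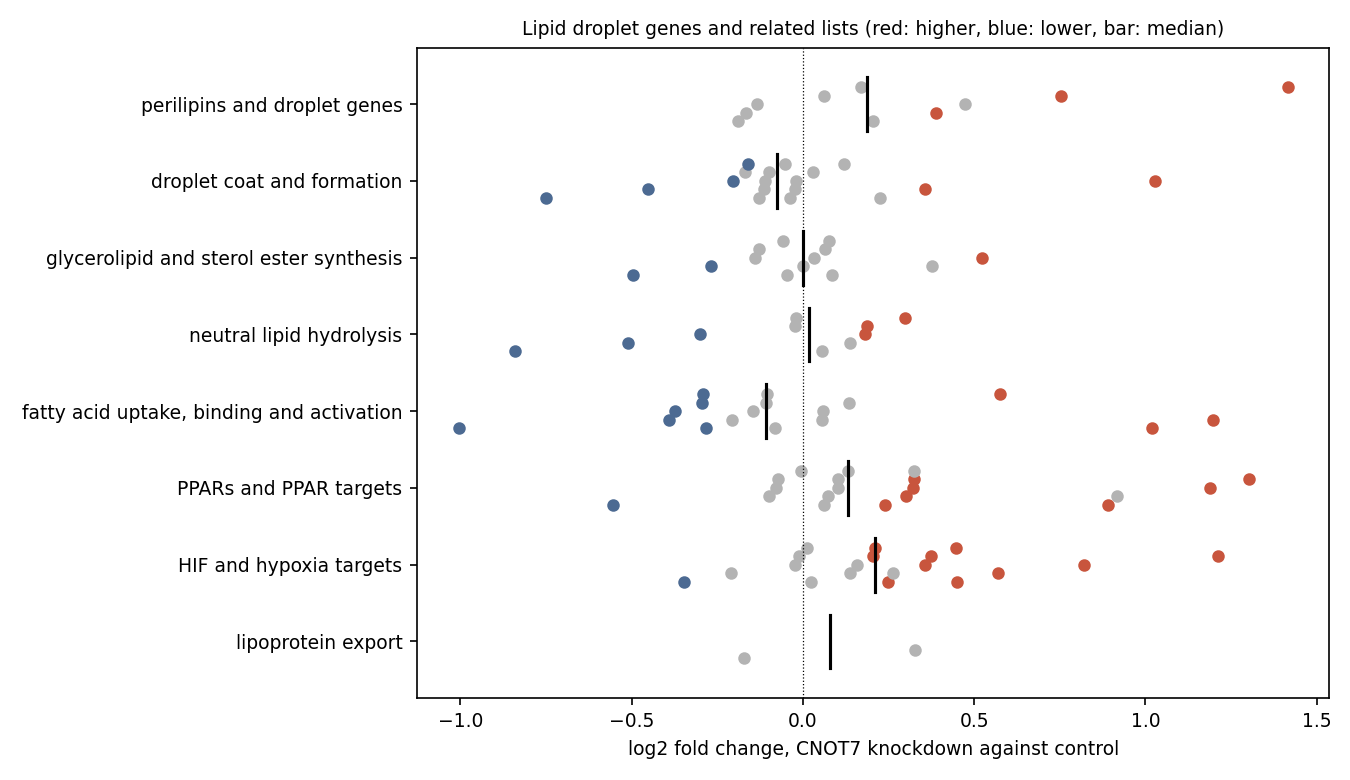
Log2 fold change, CNOT7 knockdown against control (horizontal axis), of each tested gene of the 10 droplet genes and of the 7 related lists, coloured by call (grey for not called), with a black bar at each median. The medians run from -0.11 for fatty acid uptake to 0.21 for the HIF and hypoxia targets. Every related list with calls has called genes on both sides of 0. The called droplet genes are only 3, all higher, and were chosen with these values known, so they are not set against the lists.

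Genes of other coat and formation proteins of the droplet moved in both directions. Of 24 listed, 18 were tested, 2 rose and 4 fell, with a median log2 fold change of -0.075. METTL7A, a droplet membrane protein, rose from 1.05 ± 0.211 to 2.15 ± 0.196 CPM (log2 fold change 1.03, SE 0.235, adjusted p 0.00373), and HSD17B11, a dehydrogenase found on droplets, from 48.5 ± 2.64 to 62.2 ± 3.61 CPM (0.36, SE 0.0682, adjusted p 8.92e-04). The caveolar genes CAV1 and CAVIN1 fell, CAV1 from 25.8 ± 1.16 to 15.3 ± 1.33 CPM (-0.75, SE 0.0876, adjusted p 7.36e-06) and CAVIN1 from 161 ± 14.6 to 118 ± 12.3 CPM (-0.45, SE 0.0763, adjusted p 3.07e-04). PCYT1A, which makes phosphatidylcholine for the droplet surface, fell by 0.20 on the log2 scale (SE 0.0538, adjusted p 0.00962). BSCL2, the seipin gene, was 6.004 and 5.49 CPM (log2 fold change -0.13, adjusted p 0.532). PLIN1, the perilipin of fat cells, had 4 to 15 counts a library and was not tested.

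In glycerolipid and sterol ester synthesis, 13 of 17 genes were tested, 1 rose and 2 fell, with a median log2 fold change of 0.0017. MOGAT3, an acyltransferase that makes diacylglycerol, rose from 4.87 ± 0.549 to 7.01 ± 0.822 CPM (log2 fold change 0.52, SE 0.138, adjusted p 0.00957), a call that was lost without knockdown library 3. GPAT3, which starts glycerolipid synthesis, fell from 10.3 ± 0.259 to 7.27 ± 0.748 CPM (-0.50, SE 0.112, adjusted p 0.00347). LPIN1, a phosphatidate phosphatase gene, fell from 78.9 ± 2.59 to 65.6 ± 2.64 CPM (-0.27, SE 0.0603, adjusted p 0.00345).

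Among lipases and hydrolases of neutral lipid other than PNPLA2, 10 of 13 were tested, 3 rose and 3 fell, with a median log2 fold change of 0.018. MGLL, which cleaves the last fatty acid from glycerol, fell from 14.5 ± 1.15 to 8.10 ± 1.41 CPM (log2 fold change -0.84, SE 0.121, adjusted p 6.76e-05). NCEH1, a cholesterol ester hydrolase, fell from 82.5 ± 3.75 to 57.9 ± 4.35 CPM (-0.51, SE 0.067, adjusted p 2.48e-05). LIPA, the lysosomal acid lipase, rose from 34.4 ± 0.942 to 42.3 ± 3.97 CPM (0.30, SE 0.0767, adjusted p 0.00828). LIPE, the hormone-sensitive lipase, was 13.3 and 13.1 CPM (-0.022, adjusted p 0.914). The calls of PNPLA3 (-0.30), ABHD6 (0.18) and DDHD2 (0.19) were each lost in several alternatives that leave out a single library. Without control 1, knockdown 1 or knockdown 2, the list had 3 called genes.

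For fatty acid uptake, binding and activation, 17 of 24 genes were tested, 3 rose and 6 fell, with a median of -0.11. VLDLR fell by 0.37 on the log2 scale (SE 0.0741, adjusted p 0.00129) and SLC27A2 by 0.39 (SE 0.0976, adjusted p 0.00681). ACSL6, which activates long-chain fatty acids, rose from 6.93 ± 0.285 to 15.9 ± 1.18 CPM (1.197, SE 0.104, adjusted p 2.48e-07). LPL, lipoprotein lipase, rose from 1.93 ± 0.412 to 3.91 ± 0.177 CPM (1.02, SE 0.184, adjusted p 5.55e-04), and the fatty acid transporter SLC27A1 from 28.5 ± 4.003 to 42.5 ± 3.71 CPM (0.58, SE 0.0941, adjusted p 2.25e-04). CD36 had at most 2 counts in a library.

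PLIN2, HILPDA and PLIN5 are known targets of the PPARs, nuclear receptors that bind fatty acids. Of 21 PPAR genes and other targets, 19 were tested, 7 rose and 1 fell, with a median of 0.13. PPARG rose from 7.66 ± 0.738 to 14.2 ± 0.504 CPM (log2 fold change 0.89, SE 0.106, adjusted p 8.76e-06) and PPARA from 48.8 ± 0.735 to 60.1 ± 1.95 CPM (0.30, SE 0.0622, adjusted p 0.0018), while PPARD was 193 and 192 CPM (adjusted p 0.957). ANGPTL4, a secreted inhibitor of lipoprotein lipase, rose from 2.38 ± 0.0982 to 5.43 ± 0.198 CPM (1.19, SE 0.149, adjusted p 1.62e-05). UCP2 fell from 33.8 ± 0.381 to 23.0 ± 0.741 CPM (-0.55, SE 0.0724, adjusted p 2.36e-05).

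HILPDA and PLIN2 are also known to respond to hypoxia. Of 19 HIF genes and hypoxia targets, all were tested, 10 rose and 1 fell, with a median of 0.21. CA9, a carbonic anhydrase, rose from 3.56 ± 0.226 to 8.25 ± 1.91 CPM (log2 fold change 1.21, SE 0.163, adjusted p 3.12e-05), EGLN3, an oxygen-sensing hydroxylase, from 29.5 ± 0.579 to 52.1 ± 4.35 CPM (0.82, SE 0.0746, adjusted p 4.22e-07), and ANKRD37 from 7.33 ± 0.96 to 10.8 ± 1.44 CPM (0.57, SE 0.127, adjusted p 0.0032). HIF1A itself fell from 222 ± 19.8 to 174 ± 16.8 CPM (-0.35, SE 0.072, adjusted p 0.00177). EPAS1, another HIF gene, named after its values were seen, rose from 631 ± 9.76 to 728 ± 19.8 CPM (0.20, SE 0.0468, adjusted p 0.00381). ARNT, also of the HIF genes, was not called (0.14, adjusted p 0.136). HILPDA at 0.20 and PLIN2 at 1.42 were chosen with these values known, so they are not set against this list.

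Of 7 genes for lipoprotein export, the route by which gut cells secrete lipid, 2 were tested and 0 were called by edgeR or DESeq2, with 1 at an unadjusted p under 0.05 in edgeR. APOB, APOA4 and APOC3 had no count in any library. Markers of other cell types were low beside these values. The 7 adipocyte markers summed to 1.85 to 2.61 CPM by library size in the control and 4.29 to 4.52 in the knockdown, of which LPL was the tested and called gene. The 6 fibroblast markers summed to 7.23 to 9.68 and 9.16 to 9.9, with COL3A1 and DCN at 0, and the 1 that was tested was not called. The 6 leukocyte markers summed to 3.19 to 4.35 and 4.9 to 5.7, with CD163 at 0, and of the 2 tested ITGAM, named after its values were seen, rose from 0.966 ± 0.213 to 1.83 ± 0.174 CPM (log2 fold change 0.93, adjusted p 0.012 by edgeR). The part of these small sums in the levels of PLIN2, PLIN5 or DGAT2 was not tested.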

How the data were processed

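Total RNA was extracted with TRIzol and made into libraries with a NEBNext Ultra RNA kit. The authors deposited raw read counts per gene for 6 libraries, with no normalization, beside a gene length in bases. The submitters' processing notes name CASAVA 1.8, fastp, HISAT2 2.0.5, featureCounts 1.5.0-p3 and DESeq2 1.20.0 with GRCh38, and strandedness is not given in the sources used here. All 58735 gene IDs were found in GENCODE 29, and no column of another sample was left unused (0).

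The analysis used edgeR 4.0.16 under R 4.3.3. After filterByExpr, which kept 17574 genes, counts were scaled by TMM and compared between the groups with the quasi-likelihood test without covariates, with Benjamini-Hochberg adjustment over all tested genes, a threshold of 0.05 and no minimum fold. Each SE was obtained by dividing the size of the log2 fold change by the root of F. RPKM used the gene length of the table. On simulated counts the fit recovered 176 of 200 changed genes and called 11 of 17152 unchanged genes. The simulation gave every gene a biological coefficient of variation of 0.05, below the median of 0.0744 in these libraries. It therefore shows that the fit runs properly and does not measure its error rate here. Each library was counted as 1 replicate. Pairs of libraries of a group differed by more than sampling noise (chi-square per degree of freedom 3.05 to 9.62). This does not show that they came from separate cultures.

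The 10 genes and the lists were chosen with earlier results of these data known. Besides the 10 genes and CNOT7, the text names up to 3 higher and 3 lower called genes of each list, those with the largest log2 fold change whose groups do not overlap, a few central genes of each list, the nearest tested protein-coding genes, and the 5 genes closest to PLIN2 in profile. Some list genes that the rule takes are counted but not reported here by name. Alternatives were DESeq2 1.42.0, RLE, library size or cyclic loess scaling, no filter, at least 10 counts in every library, the replicate number as a block, and leaving out each library. A fit without both libraries numbered 2 was added after the data were seen. Promoters and motifs came from RefSeq (GRCh38.p14), and 3′ UTRs from GENCODE 29.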

Additional observations from a re-analysis of the deposited data

How the results depend on the processing

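PLIN2 and DGAT2 kept their direction and their call in all 14 alternative fits. The number of the 10 genes called was 2 with DESeq2 and with cyclic loess scaling, 4 with library size scaling, and 2 to 3 when a single library was left out. Over all genes, 4424 were called, 3030 without control replicate 3 and 6508 with the replicate block, and lower calls were 1367 and 3306 in these fits against 2095. Neutral lipid hydrolysis had 3 to 4 called genes, and lipoprotein export 0 to 1, when a single library was left out. The log2 fold change of G0S2 then ran from -0.045 to 0.457, that of LIPE from -0.104 to 0.0747 and that of PPARD from -0.042 to 0.0316. With library size scaling LIPE was 0.0252 and PPARD 0.0412, and with cyclic loess scaling PPARD was 0.0541. PLIN4 and PLIN5 had only 13 to 66 counts a library. The cause of these changes was not tested.

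Library numbers were not taken to pair the samples. Deviations from the group means correlated at 0.0228, 0.153 and -0.0153 between libraries of the same number, and not every library correlated best with its own number. With the replicate block 5 of the 10 genes were called, HILPDA and PNPLA2 in addition, as were 6 genes of glycerolipid and sterol ester synthesis and 1 of lipoprotein export. Without both libraries numbered 2, an alternative added after the data were seen, these 2 lists had 5 and 1 called genes.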

Other observations

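Within the hypoxia list, genes that the text did not name, singled out here after their values were seen, differed widely. NDRG1, a stress response gene, rose from 246 ± 12.7 to 337 ± 8.44 CPM (log2 fold change 0.45, edgeR adjusted p 8.41e-06), and P4HA1, a collagen prolyl hydroxylase gene, rose from 40.0 ± 2.40 to 54.5 ± 3.17 CPM (0.45, edgeR adjusted p 1.72e-04). The glucose transporter gene SLC2A1 was 1654 and 1681 CPM (edgeR adjusted p 0.766) and LDHA, the lactate dehydrogenase gene, was 1548 and 1560 CPM (edgeR adjusted p 0.895). VEGFA, the angiogenic factor gene, was 26.5 and 22.9 CPM (log2 fold change -0.21, edgeR adjusted p 0.123).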
